A study of Mus musculus with 16 samples.

Results

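Metallothioneins are small cysteine-rich proteins of the cytosol that hold zinc and copper, and the liver is one of the organs that makes most of them. Their genes are switched on through metal response elements, short promoter sequences bound by the zinc-sensing transcription factor MTF1, and in the liver also by glucocorticoids, by cytokines and during fasting. Transporters of the SLC39 family (ZIP) bring zinc and other divalent metals into the cytosol, and those of the SLC30 family (ZnT) take them out of it. Described here are 7 genes of this system, chosen by gene name from 25803 genes in the deposited tables: the metallothioneins Mt1 and Mt2, their regulator Mtf1, the importers Slc39a14 and Slc39a8, and the exporters Slc30a1 and Slc30a10. The names were proposed with earlier results of these data known, so the values below describe these genes and are not independent evidence of any pattern.

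The samples were livers of male mice that had received a high-fat diet (HFD) for 12 weeks, as bulk RNA with 4 libraries in each of 4 groups. Fasted control and fasted LKO mice were killed after a 16 h fast. Refed control and refed LKO mice had food again for 6 h after such a fast. LKO denotes the loss in the liver of Cpt1a, the enzyme that admits long-chain fatty acids to mitochondria for oxidation, and controls are labelled only as control or WT; how the knockout was made, the strain and the age are not given in the sources used here. The labels give each library as a sample of its own with no pooling stated, but name no animals or litters, so p-values measure the spread between these libraries. Zinc intake and zinc concentrations are not given in the sources used here.

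Libraries held 14721601 to 24618230 counts, and libraries within a group had pairwise r of 0.968 to 0.986 over genes. Values are given as CPM, counts scaled to a common library total. Cpt1a, the targeted gene, spanned 319 to 620 CPM in the 8 control libraries and 39.9 to 126 CPM in the 8 LKO libraries. Alb, the hepatocyte albumin gene, stood at 33760 CPM or more in every library. In bulk tissue, fewer cells that express a gene and less RNA per cell cannot be told apart.

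Mt2 and Mt1 lie side by side on the plus strand of chromosome 8 in the mm39 coordinates of the deposited tables, Mt2 (ENSMUSG00000031762) from 94899292 to 94900196 and Mt1 (ENSMUSG00000031765) from 94905710 to 94906955, with 5513 bases between them. In the same coordinates Mtf1 spans 124695897 to 124743593 on chromosome 4, Slc39a14 70540918 to 70588874 on chromosome 14 (minus strand) and Slc39a8 135531040 to 135594333 on chromosome 3. Slc30a10 (185187045 to 185200959) and Slc30a1 (191638879 to 191645359) are both on chromosome 1. The sequences before the annotated starts of Mt2 and Mt1 are shown because both metallothionein genes moved together and because metal response elements act there. They are RefSeq promoter windows on build GRCm38.p6, another build than that of the counts, printed 5′ to 3′ on the gene's strand, and capitals mark each match to the core of the metal response element (TGCACNC or TGCGCNC) on either strand. The 250 bases before the start are at chr8:94172368-94172617 for Mt2 and chr8:94178839-94179088 for Mt1. The first 30 bases from the annotated start follow on lines of their own, from chr8:94172618-94172647 and chr8:94179089-94179118. Whether transcription in these livers begins at the annotated starts was not tested.
Mt2 upstream: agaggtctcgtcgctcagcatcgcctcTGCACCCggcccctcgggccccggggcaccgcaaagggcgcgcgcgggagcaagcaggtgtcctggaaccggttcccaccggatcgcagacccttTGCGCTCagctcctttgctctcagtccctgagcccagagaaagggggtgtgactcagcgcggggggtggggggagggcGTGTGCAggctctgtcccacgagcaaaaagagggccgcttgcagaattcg
Mt2 from the start: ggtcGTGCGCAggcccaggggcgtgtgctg
Mt1 upstream: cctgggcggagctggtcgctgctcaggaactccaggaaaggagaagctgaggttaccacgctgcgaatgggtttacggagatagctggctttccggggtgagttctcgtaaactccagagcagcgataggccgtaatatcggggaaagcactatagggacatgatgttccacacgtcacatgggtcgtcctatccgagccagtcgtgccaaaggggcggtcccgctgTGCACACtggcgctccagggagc
Mt1 from the start: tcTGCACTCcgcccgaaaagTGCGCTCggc

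In the 300 base window, which runs 250 bases before and 50 after the annotated start, Mt2 held 4 matches to the core and Mt1 held 3. Of 32851 such windows in the table, 25.7% held at least 1 match, 1.97% at least 3 and 0.517% at least 4, with overlapping matches counted separately. Promoter windows were found for 6 of the 7 genes, all but Slc39a14, and Slc39a8 had 2 windows. Slc30a10 held 3 matches, of which 1 pair overlaps on opposite strands, Slc30a1 held 2, Slc39a8 held 1 in one window and 0 in the other, and Mtf1 held 0. A core of the antioxidant response element (TGACNNNGC, either strand), present in 12.4% of all windows, occurred once in the Mt2 window as TGACTCAGC and in 1 window each of Slc30a1 and Slc39a8. The STAT site TTCNNNGAA, which reads the same on both strands, present in 8.3% of all windows, occurred in 0 of the 7. These are matches of letters in a window and not measured sites, and matches outside the windows were not counted.

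The metallothionein transcripts fell steeply after refeeding, in both genotypes. In fasted control libraries S40 to S43 Mt1 stood at 240, 124, 203 and 252 CPM, and in refed control libraries S48 to S51 at 8.82, 12.5, 13.0 and 40.3 CPM. All 4 refed values lay below the lowest fasted one, with S51 above the other three. The means were 205 ± 57.7 and 18.7 ± 14.5 CPM (SD, n = 4), so that refed controls held 9.12% of the fasted level. The fitted log2 fold change was −3.46 (SE 0.51, edgeR adjusted p = 6.5e-04), a fall of 11.0-fold.

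In LKO livers Mt1 stood at 76.8, 272, 66.1 and 141 CPM in the fasted libraries S44 to S47 and at 7.67, 8.90, 16.6 and 10.01 CPM in the refed libraries S52 to S55. The groups again did not overlap, although the fasted LKO libraries themselves spread 4.11-fold between S46 and S45. The means were 139 ± 94.5 and 10.8 ± 3.97 CPM (SD, n = 4), with a log2 fold change of −3.69 (SE 0.52, edgeR adjusted p = 2.1e-04), a fall of 12.9-fold. Of the 14488 genes tested, Mt1 had the sixth largest fitted fall in control and the seventh largest in LKO.

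Mt2, the second liver metallothionein, followed at a lower level. It stood at 12.4, 6.71, 12.1 and 16.6 CPM in fasted control and at 0.447, 0.425, 0.756 and 2.10 CPM in refed control libraries, in the same library order. The log2 fold change was −3.72 (SE 0.59, edgeR adjusted p = 0.00115), without overlap between the groups. In LKO it went from 1.85, 12.3, 2.24 and 6.84 CPM fasted to 0.307, 0.196, 0.618 and 0.346 CPM refed (−3.96, SE 0.68, edgeR adjusted p = 8.5e-04), again without overlap. The refed values rest on 7 to 31 counts a library in control and 3 to 10 in LKO. A gene needed about 0.564 CPM in at least 4 libraries to be tested, and only 2 of the refed control and 1 of the refed LKO libraries reached that for Mt2, which was therefore tested on the strength of the fasted groups.

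**Figure D1:**
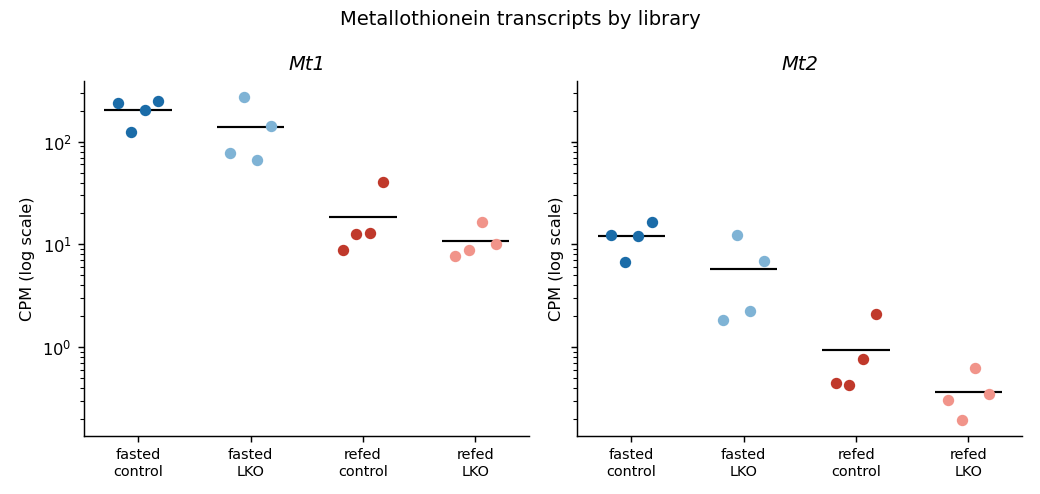
CPM of Mt1 and Mt2 on a log axis in each of the 16 libraries (points) with the mean of each group of 4 (lines). The refed libraries sit below the fasted ones in both genotypes, Mt1 at 7.67 to 40.3 against 66.1 to 272 CPM, with S51 the highest refed control.

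The refeeding comparisons called 2 of the 7 genes in each genotype, Mt1 and Mt2, both lower, where 15.4% of all genes tested were called in control (7.65% lower) and 18.1% in LKO (8.78% lower). Groups did not overlap in the lower direction for 10.1% of all genes in control and 9.95% in LKO. The median log2 fold change of the 7 genes was 0.10 in control and −0.12 in LKO, against 0.01 and −0.02 over all genes. In control, leaving out S51 gave −4.15 for Mt1 and −4.39 for Mt2. In LKO, leaving out S45 gave −3.13 for Mt1 and −3.27 for Mt2. Over the 16 fits that each left out 1 library, the edgeR adjusted p for Mt1 was at most 0.00379 in both genotypes, and that for Mt2 at most 0.00606. The authors' deposited tables gave −3.46 and −3.68 for Mt1 and −3.70 and −3.98 for Mt2 in control and LKO. The genotypes did not differ detectably in this response: the difference was −0.23 (SE 0.66, edgeR adjusted p = 0.895) for Mt1 and −0.24 (SE 0.90, edgeR adjusted p = 0.920) for Mt2. Standard errors of that size leave room for differences in either direction, and both signs turned without S45 or S51.

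Marker genes of other cells were read in the same libraries. Of 6 adipocyte markers, the carbonic anhydrase gene Car3 made up nearly all of a summed level of 1985 to 3444 CPM in fasted and 3888 to 5376 CPM in refed control, and of 147 to 1167 and 1511 to 2409 CPM in LKO. The defining markers Adipoq, Lep, Plin1 and Retn stayed at 0.497 CPM or less in every library. Summed markers of the 9 other lists (hepatocytes, macrophages, stellate, endothelial, lymphoid, red blood and bile duct cells, neutrophils and acinar pancreas) overlapped between fasted and refed libraries in both genotypes.

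Both metallothioneins were also lower in LKO than in control on average, in both feeding states, but neither difference passed. Fasted LKO means were 67.9% of control for Mt1 and 48.6% for Mt2. The log2 fold changes were −0.56 (SE 0.46, edgeR adjusted p = 0.473) for Mt1 and −1.04 (SE 0.49, edgeR adjusted p = 0.184) for Mt2. S44 and S46 lay below every fasted control, whereas S45 was the highest of all fasted libraries for Mt1. The bile duct markers Krt19, Krt7 and Epcam reached 29, 4.59 and 7.89 CPM in fasted LKO, and the pancreas gene Ctrb1 9.43 CPM. In fasted control these genes reached at most 2.1, 1.3, 2.3 and 0 CPM. At the scaling of each library, these fasted LKO maxima are whole counts only in S44. The part of duct or pancreas tissue in the values of S44 was not tested. Leaving out 1 library at a time gave −1.12 to −0.33 for Mt1. For Mt2 it gave −1.74 without S45, which passed (edgeR adjusted p = 0.0234), and as little as −0.74 without S44 (edgeR adjusted p = 0.379). Under limma-voom it passed with all libraries (−1.43, adjusted p = 0.0377).

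In the refed state the log2 fold changes of LKO over control were −0.79 for Mt1 (SE 0.49, edgeR adjusted p = 0.419) and −1.28 for Mt2 (SE 0.80, edgeR adjusted p = 0.422). Both leaned on 1 control library: without S51 they were −0.10 for Mt1 and −0.61 for Mt2. Several marker sums also differed by genotype without overlap. In the fasted state those of hepatocytes, mostly Alb, were 59310 to 67760 CPM in LKO against 70320 to 78080 in control. Those of the adipocyte list, mostly Car3, were 147 to 1167 against 1985 to 3444 CPM. With Adipoq, Lep, Plin1 and Retn at 0.497 CPM or less, the sums of this list describe Car3 rather than adipocytes. Of the 8 hepatocyte markers, 6 were lower and 2 higher in fasted LKO. Of these, 2 were called, both lower, where 12.2% of all genes were called in either direction. In the refed state the sums of adipocyte markers were 1511 to 2409 CPM in LKO against 3888 to 5376 in control, and those of acinar pancreas, nearly all Cela1, were 12.9 to 14.4 against 21.0 to 32.5 CPM. Lymphoid markers were 16.5 to 41.03 CPM in LKO and 5.02 to 9.63 CPM in control over both states. Their part in the metallothionein values was not tested.

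These genotype comparisons share their libraries with the refeeding comparisons, so the 2 sets of values are not independent.

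The balance of the metallothioneins was read as the ratio of their raw counts within a library, which does not depend on scaling. For each Mt2 count there were 15.2 to 19.3 Mt1 counts in fasted control and 17.2 to 29.5 in refed control libraries. In LKO there were 20.6 to 41.6 fasted and 25 to 45.3 refed. Fasted LKO lay above fasted control in all libraries, narrowly between S47 at 20.6 and S40 at 19.3, and the refed groups overlapped. The highest fasted LKO ratios, in S44 and S46, rest on 37 and 40 Mt2 counts. S44 is also the library with the bile duct and pancreas transcripts described above. How often other gene pairs separate in this way was not tested. Ratios in refed libraries rest on few Mt2 counts, down to 3 in S53. The coding sequences are related, and how reads that match both genes were counted is not given in the sources used here.

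Mtf1 (ENSMUSG00000028890), the transcription factor that reads zinc and binds metal response elements, kept a narrow range. Control libraries ran from 12.7 to 14.8 CPM fasted and from 15.2 to 15.8 refed, and LKO libraries from 13.7 to 15.8 fasted and from 14.6 to 17.2 refed. The refed controls lay above the fasted controls without overlap, as did 10.4% of all genes, but the difference of 0.17 (SE 0.08) did not pass (edgeR adjusted p = 0.164). In LKO the groups overlapped (0.14, SE 0.08, edgeR adjusted p = 0.269).

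Slc39a14 (ENSMUSG00000022094) encodes ZIP14, an importer of zinc, iron and manganese at the hepatocyte membrane. Control libraries stood at 104, 159, 166 and 93.6 CPM fasted and at 134, 161, 136 and 129 CPM refed. LKO libraries stood at 97.3, 109, 115 and 95.7 CPM fasted and at 110, 127, 115 and 127 CPM refed. Fasted controls fell into a high pair (S41, S42) and a low pair (S40, S43), and the low pair overlapped with fasted LKO. Refed LKO lay just below refed control without overlap, 127 against 129 CPM at the nearest libraries, as did 5.03% of all genes. The log2 fold change of LKO over control was −0.33 fasted (SE 0.15, edgeR adjusted p = 0.181) and −0.22 refed (SE 0.15, edgeR adjusted p = 0.472). Refeeding gave 0.10 in control and 0.20 in LKO (edgeR adjusted p = 0.717 and 0.403).

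Slc39a8 (ENSMUSG00000053897) encodes ZIP8, the close relative of ZIP14 that also carries manganese and zinc. Its libraries ran from 12.6 to 22.5 CPM over all groups, with means of 19.6 ± 0.811 fasted and 17.5 ± 2.81 refed in control, and 18.4 ± 3.19 fasted and 15.3 ± 2.17 refed in LKO (SD, n = 4). The groups overlapped in all 4 comparisons, and the log2 fold changes lay between −0.26 and −0.09 with edgeR adjusted p from 0.204 to 0.703.

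Of the exporters, Slc30a1 (ENSMUSG00000037434), which encodes ZnT1 of the plasma membrane and is a known target of MTF1, ran from 22.1 to 36.3 CPM over all libraries. Control means were 26.4 ± 2.75 fasted and 30.2 ± 5.21 refed, and LKO means 28.6 ± 4.75 fasted and 26.2 ± 4.42 refed (SD, n = 4). The groups overlapped in all comparisons, and refeeding gave 0.20 (SE 0.15, edgeR adjusted p = 0.392) in control and −0.12 (SE 0.15, edgeR adjusted p = 0.619) in LKO.

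Slc30a10 (ENSMUSG00000026614) belongs to the zinc exporter family but is known for exporting manganese. Control libraries stood at 10.5, 18.4, 19.3 and 24.8 CPM fasted and at 43.3, 41.5, 30.9 and 21.4 CPM refed. LKO libraries stood at 12.6, 16.5, 7.06 and 20.9 CPM fasted and at 33.3, 16.3, 12.5 and 13.9 CPM refed. Of the refed controls 3 lay above every fasted library, and S51 did not. The refeeding difference in control was 0.91 (SE 0.35, edgeR adjusted p = 0.0879); it passed without S51 (1.08, adjusted p = 0.0492) and in a fit of only these 2 groups (0.91, adjusted p = 0.0461), and the authors' deposited table lists an adjusted p of 0.00559. In LKO it was 0.42 (SE 0.35, edgeR adjusted p = 0.459), which rested on S52 and was −0.00099 without it. LKO over control was −0.85 in the refed state (SE 0.35, edgeR adjusted p = 0.196) and −0.35 in the fasted state (SE 0.35, edgeR adjusted p = 0.575). The difference between the states did not pass (−0.49, SE 0.50, edgeR adjusted p = 0.657).

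**Figure D2:**
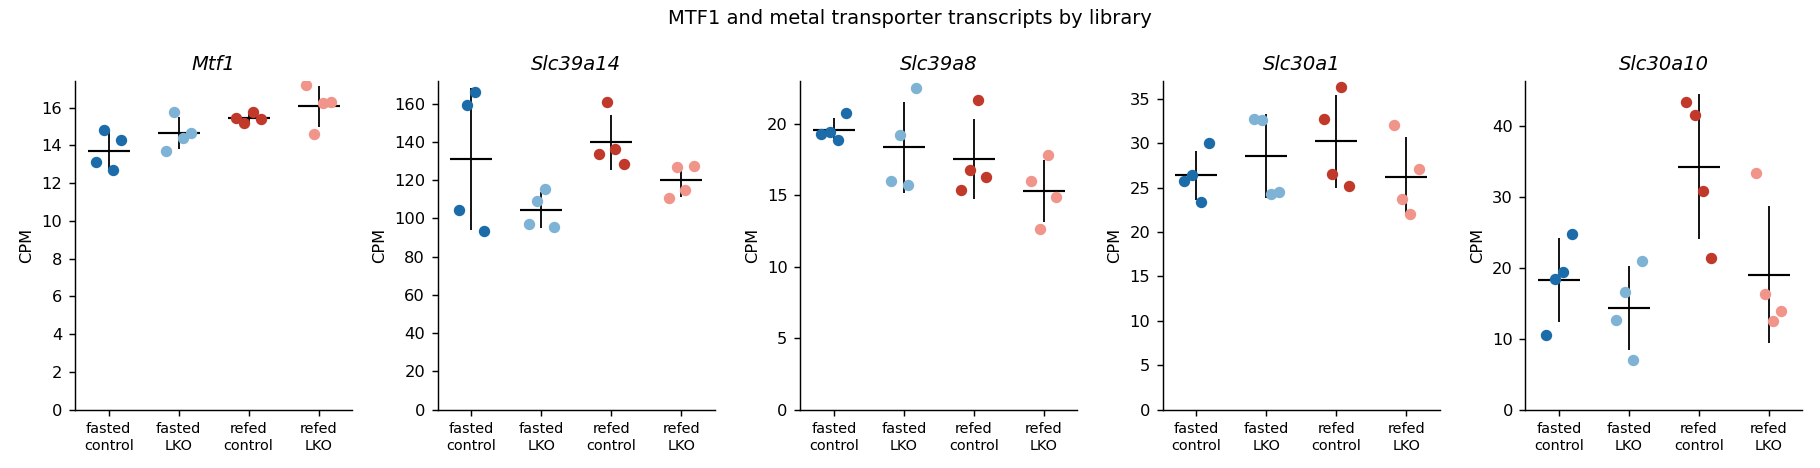
CPM of Mtf1 and of the 4 transporter genes in each library (points), with the mean (horizontal line) and SD (vertical line) of each group of 4. Slc30a10 has the highest mean in refed control, 34.3 CPM, and Mtf1 stays between 12.7 and 17.2 CPM in all 16 libraries.

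Between the genotypes, edgeR called 0 of the 7 genes in the fasted state, where 12.2% of all genes were called, and 0 in the refed state, where 3.63% were called. At an unadjusted p under 0.05 there were 2 in the fasted state, Mt2 and Slc39a14, and 1 in the refed state, Slc30a10. DESeq2 called 0 in both states, and limma-voom called 1 in the fasted and 0 in the refed state. In the test of a difference between the states (interaction) edgeR called 0 of the 7 and 0.538% of all genes, with 0 of the 7 at an unadjusted p under 0.05 and 0 called by DESeq2. The median log2 fold change of the 7 genes was −0.33 in the fasted and −0.22 in the refed state, against 0.02 and −0.01 over all genes.

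**Figure D3:**
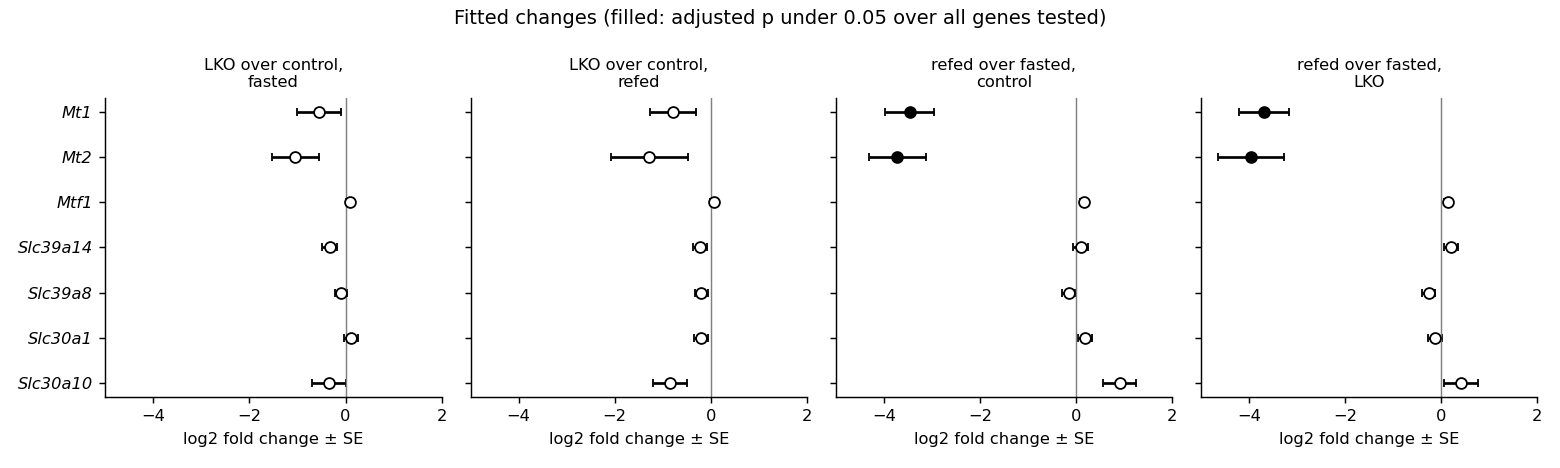
Fitted log2 fold change ± SE of the 7 genes in the 4 comparisons, from the fit over all 16 libraries; filled points passed the threshold. The filled points are those of Mt1 and Mt2 after refeeding, at −3.46 and −3.72 in control and −3.69 and −3.96 in LKO.

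Levels of different genes were compared as CPM per kb of the gene length in the deposited tables. In fasted control the order was Mt1 (164 ± 46.3), Mt2 (20.3 ± 6.87), Slc39a14 (12.4 ± 3.52), Slc30a1 (5.03 ± 0.525), Slc30a10 (2.81 ± 0.902), Slc39a8 (2.56 ± 0.106) and Mtf1 (1.54 ± 0.111 CPM per kb; SD, n = 4). Of these neighbours, Slc30a10 and Slc39a8 did not differ beyond their spread, and the SDs of Mt2 and Slc39a14 overlapped. In refed LKO Mt1 had come down to 8.65 ± 3.18, below Slc39a14 at 11.4 ± 0.814, and Mt2 was the lowest of the 7 at 0.624 ± 0.304 CPM per kb (SD, n = 4). The Mt1 length in the deposited tables is 1246 bases and that of Mt2 588, and a longer annotated length lowers a value per kb. The length given for Mt1 equals its whole annotated span. Its place below Slc39a14 in refed LKO therefore depends on that length and may not hold for a shorter one.

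The rest of the SLC39 and SLC30 families was read from lists of 12 and 8 genes. Over all genes tested, refeeding called 7.79% higher and 7.65% lower in control (15.4% in all) and 9.28% higher and 8.78% lower in LKO (18.1% in all), and the counts of the lists are to be read against these shares. Of 11 further ZIP genes tested, refeeding raised 2 and lowered 1 in control and raised 1 and lowered 1 in LKO, which is near the general rate in LKO, with medians of 0.04 and 0.01. Of 6 further ZnT genes tested it raised 2 in control and 1 in LKO, with medians of 0.15 and 0.17. Slc39a10, a plasma membrane importer whose gene is known to be repressed by MTF1 when zinc is plentiful, rose in both genotypes. It went from 0.988–1.77 to 2.10–5.30 CPM in control and from 0.998–1.31 to 3.27–5.22 CPM in LKO. The groups did not overlap in either genotype. In control the same held in this direction for 10.4% of all genes, and the share in LKO is not given here. The log2 fold changes were 1.48 (SE 0.28, edgeR adjusted p = 0.00274) and 1.84 (SE 0.28, edgeR adjusted p = 3.7e-04).

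Slc39a10 was itself a gene at low levels, at 5.30 CPM or less in every library. Other genes of these families were called as well. Slc39a1, which encodes the importer ZIP1, fell by 0.35 in control and by 0.20 in LKO (edgeR adjusted p = 0.00162 and 0.0312). Slc30a9 rose by 0.27 and 0.34 (edgeR adjusted p = 0.0338 and 0.00808). Slc39a9, which encodes ZIP9, rose by 0.39 with refeeding in control (edgeR adjusted p = 0.0171) and was −0.19 in LKO (edgeR adjusted p = 0.22); the difference between the genotypes did not pass (−0.58, edgeR adjusted p = 0.0688). It was also the 1 gene of both lists called between the genotypes, where 12.2% of all genes were called fasted and 3.63% refed. Slc39a9 was higher in fasted LKO at 62.4 ± 8.02 against 42.2 ± 3.23 CPM (SD, n = 4). The log2 fold change was 0.56 (SE 0.10, edgeR adjusted p = 0.00228). Slc30a3, one of the 2 ZnT genes called in control, gave 2.02 (edgeR adjusted p = 0.025) at 0.0993 to 0.642 CPM fasted and 0.691 to 1.73 CPM refed. All 4 refed control libraries but only S41 of the fasted control libraries reached the 0.564 CPM needed for testing, so in this comparison it passed through the group where it is high. Slc39a12, Slc30a2, Slc30a8 and the metallothionein Mt3 stayed at 0.298 CPM or less in every library and were not tested.

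**Figure D4:**
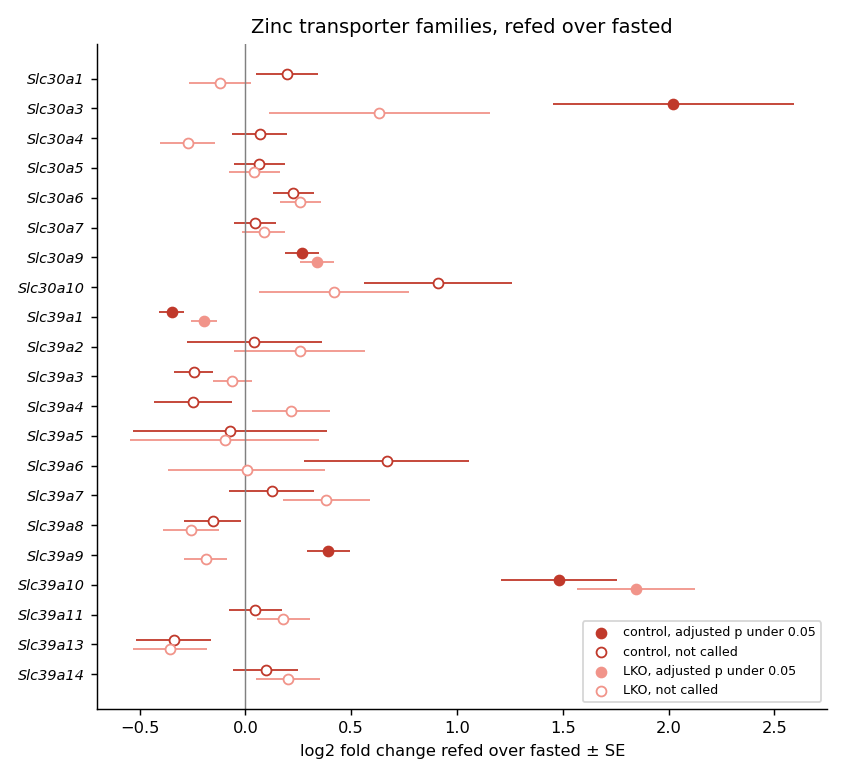
Fitted log2 fold change ± SE, refed over fasted, for the tested zinc transporter genes of the SLC30 and SLC39 families in control (dark) and LKO (light); filled points passed the threshold. Slc39a10 stands to the right in both genotypes, at 1.48 and 1.84, and Slc30a3, a gene at low counts, in control at 2.02.

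Genes tied to other inducers of metallothioneins were read from further lists, described by their counts. Of 12 genes responsive to glucocorticoids, refeeding lowered 1 in control and lowered 2 and raised 1 in LKO, against 7.65% of all genes lower in control and 8.78% lower and 9.28% higher in LKO. The list's medians were 0.18 and 0.22. In control 9 of the 12 genes had a positive difference, of which 0 passed, and in LKO 7, of which 1 passed. The gene lowered in both was Klf9, by 0.60 and 0.83 (edgeR adjusted p = 0.0269 and 0.00354). Tsc22d3 was higher at 0.91 in control (edgeR adjusted p = 0.194) and rose by 1.52 in LKO (edgeR adjusted p = 0.0315). Zbtb16 gave 1.81 and 1.99 (edgeR adjusted p = 0.139 and 0.118), Dusp1 0.53 and 1.25 (edgeR adjusted p = 0.470 and 0.0779), and Fkbp5 0.09 and −0.41 (edgeR adjusted p = 0.862 and 0.354). Igfbp1 gave −0.49 in control (edgeR adjusted p = 0.543) and fell by 2.53 in LKO (edgeR adjusted p = 0.00272). Of 15 acute phase genes under IL-6 and STAT3, refeeding lowered 5 in control, where 7.65% of all genes were lower, and lowered 2 and raised 1 in LKO, where 8.78% were lower and 9.28% higher (medians −0.22 and −0.23). Socs3, the feedback inhibitor of that pathway, fell in both, with log2 fold changes of −1.17 and −1.003 (edgeR adjusted p = 0.0115 and 0.0224). Of 10 NRF2 targets tested 1 was raised in control and 1 lowered in LKO, and of 9 heat shock genes 2 and 3 were raised. Their part in the metallothionein result was not tested.

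The lists of iron and copper handling gave the setting for the other metals. Of 17 iron genes, refeeding raised 3 and lowered 1 in control and raised 2 and lowered 1 in LKO, where 15.4% and 18.1% of all genes were called. Of these, Tfrc, the transferrin receptor, rose by 1.44 and 1.51 (edgeR adjusted p = 0.0137 and 0.00898). Of 9 copper genes tested, 1 rose and 1 fell in control and 2 rose in LKO. Slc31a1, the copper importer CTR1, rose in both, by 0.28 and 0.41 (edgeR adjusted p = 0.029 and 0.00295).

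Finally, genes were ranked by the likeness of their pattern to that of Mt1, as Pearson's r of log2 CPM over the 16 libraries, which share the feeding contrast, among 9039 named genes with a mean of at least 5 CPM. Mt2, outside the ranking as a member, stood at 0.983, and at 0.945 once the group means were removed. The 5 most alike genes were Sh2b1 (0.975), Tmem184a (0.968), Slc66a1 (0.963), Sdr42e1 (0.954) and Zbtb11os1 (0.954), with 0.905, 0.787, 0.802, 0.790 and 0.689 after removal of the group means. Sh2b1 encodes an adaptor of insulin and leptin receptor signalling, and Slc66a1 a lysosomal exporter of basic amino acids. Their changes with refeeding were smaller than that of Mt1: Sh2b1 fell by 0.35 in control and 0.44 in LKO (edgeR adjusted p = 0.0114 and 0.00217), and Zbtb11os1 fell by 1.59 and 1.48 (edgeR adjusted p = 0.00125 and 0.00109). The use of strand in counting is not given, so Zbtb11os1 cannot be told apart from its antisense neighbour. Mtf1 stood at −0.66 over the libraries and at 0.16 after removal of the group means, Slc39a8 at 0.61 and 0.36, and Slc39a14, Slc30a1 and Slc30a10 between −0.39 and −0.12 over the libraries.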

How the data were processed

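Poly-A RNA of 16 livers was sequenced. Per the submitters' processing notes, reads were aligned with HISAT2 2.0.5 to mm39; the counting tool and its use of strand are not given in the sources used here. The authors deposited 4 tables with raw counts per gene, gene lengths, log2 fold changes and adjusted p-values (the authors' tool is not named; their first group over the second, sign turned here). Library names in the headers (S40 to S55) are not those of the titles, and the group heading shared by the 2 tables of a library gave its group. The tables were joined on gene identifier, and 3148 genes had libraries set to 0 where a table did not list them; 0 counts differed between tables, and 64 further per-library columns were not used. Counts were fitted in R 4.3.3 with edgeR 4.0.16: filterByExpr (14488 genes), TMM factors of 0.941 to 1.07, glmQLFit with 4 groups and glmQLFTest, Benjamini-Hochberg adjustment over all genes, called under 0.05. The SE is the log2 fold change over the square root of F. CPM use the TMM-scaled total, and log2 CPM for likeness a prior count of 2. The steps were tested on simulated counts. Alternatives used limma 3.58.1, DESeq2 1.42.0, other scalings, filters and left-out libraries. Named genes were Cpt1a, the 7 genes, the lists of metal, inducer and marker genes, and the 5 most like Mt1. The genes and lists were chosen with earlier results of these data known.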

Additional observations from a re-analysis of the deposited data

Results flagged for a closer look

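Among the 28 sets of 4 libraries (7 genes in 4 groups), 1 held a library far from the others by Dixon's criterion: Mt1 in refed control, where S51 stood at 40.3 CPM and the other three between 8.82 and 13.0 CPM. Chance alone flags about 1 set in 20. Mt2 was also highest in S51 among the refed controls, at 2.10 CPM, and Slc30a10 lowest, at 21.4 CPM.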

How the results depend on the processing

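The direction and call of Mt1 and Mt2 after refeeding held in both genotypes under every alternative that tested them; when a mean level of 5 CPM was required, Mt2 was not tested, leaving 1 of the 7 genes called in each genotype. Leaving out 1 library gave 0 to 1 called among the 7 for fasted LKO over control, and limma-voom gave 1. Signs turned for some differences that had not passed: in the interaction, limma-voom gave 0.17 for Mt1 and 0.40 for Mt2, and leaving out 1 library gave −0.50 to 0.46 for Mt1, −0.55 to 0.46 for Mt2, −0.075 to 0.015 for Mtf1, −0.018 to 0.24 for Slc39a14 and −0.18 to 0.020 for Slc39a8. Refeeding gave −0.035 to 0.23 for Slc39a14 in control and −0.00099 to 0.66 for Slc30a10 in LKO. Counts over all genes moved more. At an adjusted p under 0.01, 663 (fasted) and 127 (refed) genes were called between genotypes, 822 (control) and 1265 (LKO) between feeding states and 0 in the interaction (edgeR; 2397 at an unadjusted p under 0.05). The main counts were 1772, 526, 2238, 2616 and 78, and leaving out 1 library gave 1048 to 1985, 197 to 601, 1220 to 2483, 1795 to 2730 and 8 (without S48) to 282 (without S49). DESeq2 called 924 between refed genotypes and 458 in the interaction, and the 5 CPM filter gave 197 in the interaction. The cause was not tested. Depth limits Mt2 in refed libraries, at 3 to 31 counts. No paired analysis was possible because the count columns carry no replicate number.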

Other observations

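Of the 17 iron genes, Slc40a1, which encodes the iron exporter ferroportin, was the 1 called in the interaction. Of all genes, 0.538% were called there. Slc40a1 was chosen here after its values were seen. Its mean went from 80.2 CPM fasted to 101 CPM refed in control (edgeR adjusted p = 0.0477) and from 93.5 to 66.0 CPM in LKO (edgeR adjusted p = 0.00434), with n = 4 libraries a group. LKO over control was 0.22 in the fasted state (edgeR adjusted p = 0.203) and −0.61 in the refed state (edgeR adjusted p = 0.00538), and the difference between the states was −0.83 (SE 0.15, edgeR adjusted p = 0.032). Slc40a1 is also expressed by macrophages, and 8 Kupffer cell and macrophage markers were read beside it. All 8 were lower in refed LKO than in refed control (median −0.76), in refed than in fasted LKO (median −0.40) and in the interaction (median −0.62). In control, 7 of the 8 were higher refed than fasted (median 0.21). Refed control libraries spread widely, with Marco at 4.14 to 192.5 CPM (mean 56.8 ± 90.6, SD, n = 4). Adgre1 ran from 7.94 to 48.5 CPM in that group. The medians that involve refed control may therefore lean on its highest values, and fits without 1 library are not given for these markers. In fasted LKO over control, 7 of the 8 were lower (median −0.14), opposite in sign to Slc40a1. In each comparison 0 of the 8 markers were called, where the share of all genes called ran from 0.538% (interaction) to 18.1% (refeeding in LKO). Their sum was 215 to 822 CPM in refed control and 226 to 334 CPM in refed LKO, and their part in the Slc40a1 values was not tested.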
